A study of Mus musculus with 21 samples.

Results

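Skeletal muscle of the limb is built by a small set of regulators, and 10 of them were followed across the culture of mouse forelimb buds (FBs): *Pax3*, *Pax7*, *Lbx1*, *Myf5*, *Myf6*, *Myod1*, *Myog*, *Mef2c*, *Msc* and *Mstn*. They were chosen by symbol, as the rows of the expression table annotated with that gene and no other, and they are 10 of 14860 genes measured in this way. Each of the 10 had 1 row, and none was missing. The embryos were Swiss mice at E10.5 or E12.5, with no transgene or mutation given. Freshly dissected FBs are the 0 h group of each stage. In the other groups whole embryos had been cultured before the FBs were collected, for 1, 3 or 6 h at E10.5 and for 1 or 3 h at E12.5. Each of the 7 groups has 3 arrays that the labels call biological replicates, 21 in all, and the number of embryos behind an array is not given in the sources used here. Expression is given as the log2 value of the robust multi-array average (RMA), so that a difference of 1 is a doubling of the signal. Differences and their standard errors (SE) come from a limma fit to all 21 arrays, and "rose", "fell", "higher" or "lower" as a result means a Benjamini-Hochberg adjusted p under 0.05 over all 14860 genes.

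Limb muscle comes from somites. Cells of the dermomyotome that express *Pax3* are released under the receptor Met and its ligand Hgf, migrate into the limb bud with the help of *Lbx1*, and begin to express the myogenic regulatory factors once they are there. *Myf5* and *Myod1* commit the cells, and *Myog*, with *Mef2c* as a partner, turns on the contractile and fusion genes. *Pax7* marks progenitors that are kept in reserve, while *Msc* (musculin) and *Mstn* (myostatin) hold differentiation or growth back.

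*Tbx5*, which marks the forelimb, lay between 9.86 and 11.35 on the 21 arrays. Array medians were 6.00 to 6.40 at E10.5 and 6.43 to 6.60 at E12.5, and the mean correlation of an array with its own group lay between 0.979 and 0.996. Replicate 1 of E10.5 at 1 h stood apart: the mean of 8 measured markers of neurons was 10.16 there and 6.93 and 7.06 on the other arrays of its group, and the mean of 8 neural tube markers was 8.38 against 6.64 and 6.66. A list of 8 placenta and decidua markers, 5 of them measured, also differed between the E10.5 groups, with means of 4.88, 7.98 and 7.68 at 0 h, 3.05 to 3.16 at 1 h, 3.09 to 3.73 at 3 h and 4.69, 6.999 and 5.60 at 6 h, and of 2.75 to 3.93 at E12.5. The 4 measured markers of heart muscle stayed between 4.68 and 5.42 on average on each array. In these bulk samples fewer muscle cells and less RNA per muscle cell cannot be told apart.

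The stretches just upstream of *Myog* and *Mstn* are shown because both genes differed between the stages, in the opposite roles of driver and brake of muscle formation. *Myog* lies on chromosome 1 at 134290004 to 134292548 and *Mstn* on the same chromosome at 53061640 to 53068079 (RefSeq genes, GRCm38.p6). Both sequences are the 250 bases before the start of the gene, on the plus strand, from RefSeq. Capitals mark E-boxes, the letters CANNTG to which the myogenic factors bind as dimers, and in *Myog* also the MEF3 element TCAGGTT.
Myog, chr1:134289754-134290003: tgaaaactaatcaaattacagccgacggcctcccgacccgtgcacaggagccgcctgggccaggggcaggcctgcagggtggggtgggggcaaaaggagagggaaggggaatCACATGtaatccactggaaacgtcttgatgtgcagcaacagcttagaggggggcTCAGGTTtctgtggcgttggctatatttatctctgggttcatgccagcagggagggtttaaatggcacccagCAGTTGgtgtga
Mstn, chr1:53061390-53061639: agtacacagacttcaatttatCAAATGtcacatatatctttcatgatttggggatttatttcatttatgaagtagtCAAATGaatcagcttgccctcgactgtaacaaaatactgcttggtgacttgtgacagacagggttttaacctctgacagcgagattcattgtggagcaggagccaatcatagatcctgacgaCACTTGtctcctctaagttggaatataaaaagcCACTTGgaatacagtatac
The *Myog* window holds 2 E-boxes, beginning 138 and 12 bases before the start, and a MEF3 match at 84. The *Mstn* window holds 4 E-boxes, at 229, 174, 52 and 19 bases. Among 32851 windows of this length, 66.2% hold at least 1 E-box, 31.8% at least 2 and 3.84% at least 4, and 3.49% hold a MEF3 match on either strand. A match is a description of the letters only. Windows were found for 5 of the 10 genes, and those of *Myf5* and *Pax7* hold no E-box, while those of the 3 starts of *Mef2c* hold 2, 0 and 1.

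**Figure D1:**
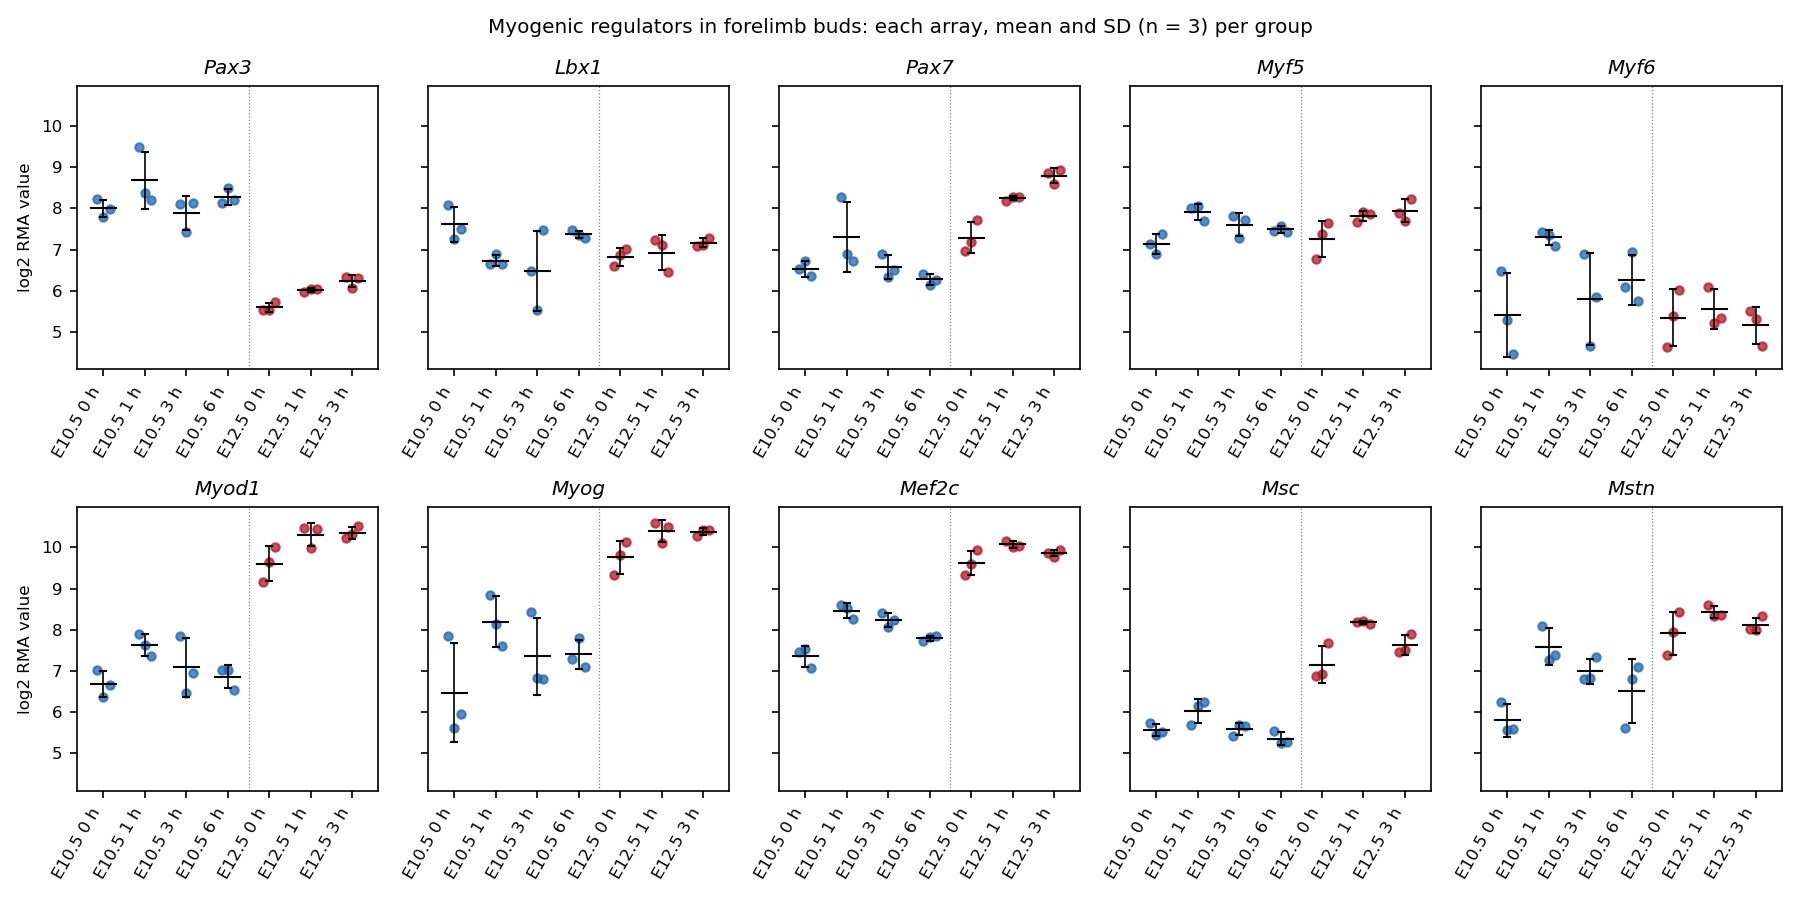
Log2 RMA value (vertical axis) of each of the 10 regulators on every array, by group (horizontal axis), with E10.5 in blue and E12.5 in red; lines are group means and bars SDs of 3 arrays. *Myod1*, *Myog*, *Mef2c* and *Msc* lie higher on every E12.5 array than on any E10.5 array, and *Pax3* lies lower.

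The first comparison asks how FBs of E12.5 and E10.5 embryos differed before culture. Of the 10 regulators, *Myod1*, *Myog*, *Mef2c*, *Msc* and *Mstn* were higher at E12.5 and *Pax3* was lower, by between 1.59 and 3.28 on the log2 scale in size. Among all genes 19.7% were higher and 7.39% lower by the same test. When every array was shifted to a common median, the median of all genes in this comparison moved from 0.03 to -0.20 and the calls from 2925 higher and 1098 lower to 1549 and 3367, while all 6 of these regulators kept their calls. The median of the 10 regulators was 1.18 and that of all genes 0.03, so the regulators are described relative to a centre near 0.

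*Pax3*, the paired-box factor that specifies migrating muscle precursors, had log2 values of 8.22, 7.79 and 7.98 on the 3 arrays of E10.5 and of 5.53, 5.54 and 5.72 at E12.5. The 2 sets do not overlap, and in limma the difference was -2.40 (SE 0.25, adjusted p = 1.85e-06), or 5.29-fold lower at E12.5. *Lbx1*, a homeobox gene needed for precursors to migrate into the limb, measured 8.08, 7.25 and 7.50 at E10.5 and 6.59, 6.86 and 7.01 at E12.5. Every E12.5 array was below every E10.5 array, but the difference of -0.79 (SE 0.33, adjusted p = 0.0924) did not pass. It passed when the arrays were set to a common median (-1.02, adjusted p = 0.0134) or quantile normalized (-0.99, adjusted p = 0.0169). *Pax7*, the second paired-box gene of muscle progenitors, measured 6.52, 6.72 and 6.35 at E10.5 and 6.97, 7.18 and 7.71 at E12.5. Here the groups also did not overlap, in the other direction, and the difference of 0.76 (SE 0.29, adjusted p = 0.0615) missed the threshold.

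Among the 4 myogenic regulatory factors, which are basic helix-loop-helix activators of muscle genes, *Myod1* and *Myog* set the stages apart and *Myf5* and *Myf6* did not. *Myod1* measured 7.02, 6.37 and 6.67 at E10.5 and 9.15, 9.65 and 10.002 at E12.5, a difference of 2.92 (SE 0.29, adjusted p = 1.10e-06), 7.55-fold. *Myog*, the factor of terminal differentiation, measured 7.85, 5.63 and 5.96 at E10.5 and 9.33, 9.81 and 10.13 at E12.5. Replicate 1 stood above the other E10.5 arrays, yet below every E12.5 array, and the difference was 3.28 (SE 0.49, adjusted p = 8.18e-05), 9.72-fold. This call was lost with the placenta and decidua mean as a covariate (1.74, adjusted p = 0.117) and by the methods' t-test. *Myf5*, the first of the 4 to be switched on in the somite, measured 7.14, 6.90 and 7.37 at E10.5 and 6.78, 7.37 and 7.64 at E12.5, and its groups overlapped (difference 0.12, SE 0.20, adjusted p = 0.697). *Myf6*, its neighbour on chromosome 10 (*Myf5* at 107482908 to 107486927, *Myf6* at 107492848 to 107494723), overlapped as well, with 6.49, 5.29 and 4.48 against 4.64, 5.38 and 6.02 and a difference of -0.07 (SE 0.53, adjusted p = 0.944). *Myf6* had the lowest mean over all arrays among the 10, 5.83, at percentile 32.5 of the genes measured, and whether such values lie above background cannot be read from the table.

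*Mef2c*, a MADS-box factor that acts with the myogenic factors on muscle genes, measured 7.46, 7.55 and 7.06 at E10.5 and 9.34, 9.60 and 9.93 at E12.5. It had the smallest adjusted p of the 10, with a difference of 2.27 (SE 0.15, adjusted p = 7.76e-09), 4.81-fold. *Msc*, a repressor that competes with the myogenic factors for E-boxes, measured 5.74, 5.45 and 5.51 and then 6.87, 6.93 and 7.67, a difference of 1.59 (SE 0.19, adjusted p = 7.73e-06). *Mstn*, the secreted member of the TGF-beta family that limits muscle mass, measured 6.26, 5.56 and 5.59 at E10.5 and 7.38, 7.95 and 8.42 at E12.5, a difference of 2.11 (SE 0.33, adjusted p = 0.000136). For all 3 genes the stages did not overlap. *Mef2c* and *Mstn* are named in the study's supplementary gene lists. Those lists hold genes selected on these arrays and also literature partners of *Tbx1* and *Fgf11*, and which list named a gene was not read. The direction of *Mef2c* and *Mstn* is therefore not taken as independent evidence. Over the 10 genes, 6 did not overlap with E12.5 higher and 2 with E12.5 lower, beside 30.2% and 17.0% of all genes. Markers of other tissues moved too: 5 of 5 measured placenta and decidua markers and 4 of 7 markers of proximal limb, shoulder girdle and flank were lower at E12.5 (1 higher), 3 of 7 of the coelomic mesothelium were lower (1 higher), and 2 of 5 of neural crest and Schwann cells, which also use *Pax3* and *Mef2c*, were higher. The neural tube, another source of *Pax3*, had 2 of 8 markers lower and none higher. Of chondrocyte, macrophage and endothelium markers, 2 of 4, 2 of 5 and 2 of 8 were higher. Their part in the stage differences was not tested.

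The same comparison after 1 h of culture gave 5 regulators higher and 2 lower at E12.5, beside 13.8% and 4.35% of all genes, and after 3 h it gave 6 higher and 1 lower, beside 17.7% and 11.0%. With arrays set to a common median, the calls over all genes moved from 2047 higher and 647 lower to 1080 and 2248 at 1 h, and from 2636 and 1634 to 1420 and 3713 at 3 h. *Pax3* was lower at E12.5 at both times, with a difference of -2.67 (SE 0.25, adjusted p = 1.07e-06) after the first hour and -1.65 (SE 0.25, adjusted p = 0.000133) after 3 h. *Myod1* was higher by 2.68 (SE 0.29, adjusted p = 4.70e-06) at 1 h and 3.27 (SE 0.29, adjusted p = 5.66e-07) at 3 h. *Myog* was higher by 2.20 (SE 0.49, adjusted p = 0.00422) and 3.02 (SE 0.49, adjusted p = 0.000237) at the same times. For *Mef2c* the differences were 1.61 (SE 0.15, adjusted p = 9.28e-07) and 1.61 (SE 0.15, adjusted p = 8.49e-07), and for *Msc* 2.16 (SE 0.19, adjusted p = 5.65e-07) and 2.03 (SE 0.19, adjusted p = 1.03e-06). These 5 genes passed in limma at all 3 times, and no E12.5 array overlapped an E10.5 array of the same time for any of them.

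*Pax7* joined them in culture. It measured 8.27, 6.90 and 6.73 at E10.5 and 8.19, 8.28 and 8.28 at E12.5 after 1 h, where replicate 1 of E10.5, the array with the neural markers, lay within the range of E12.5. The difference was 0.95 (SE 0.29, adjusted p = 0.0291), a call lost when any of E10.5 replicates 2 or 3 or E12.5 replicates 1 to 3 at 1 h was left out (adjusted p between 0.0686 and 0.16) or the arrays were set to a common median (adjusted p = 0.0588). Without replicate 1 of E10.5 at 1 h the difference was 1.44 (adjusted p = 7.54e-05). After 3 h the values were 6.89, 6.34 and 6.50 against 8.86, 8.59 and 8.94, without overlap, and the difference was 2.22 (SE 0.29, adjusted p = 3.33e-05), 4.66-fold. *Mstn* was at 8.09, 7.28 and 7.40 at E10.5 and 8.61, 8.33 and 8.37 at E12.5 after 1 h, which did not pass (0.84, SE 0.33, adjusted p = 0.0918). After 3 h it was higher at E12.5 by 1.12 (SE 0.33, adjusted p = 0.0179), a call lost without replicate 1 or 2 of E10.5 or replicate 3 of E12.5 at that time (adjusted p between 0.0542 and 0.0642), and with a common array median or quantile normalization (adjusted p = 0.0589 and 0.056).

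*Myf6* was lower at E12.5 after 1 h alone. The E10.5 arrays measured 7.44, 7.36 and 7.09, the highest of any group, and those of E12.5 6.10, 5.21 and 5.34, so the groups did not overlap and the difference was -1.74 (SE 0.53, adjusted p = 0.0296). Leaving out any of the 3 E10.5 arrays or replicate 2 or 3 of E12.5 at 1 h ended this call (adjusted p between 0.0563 and 0.101). At 3 h its difference was -0.64 (SE 0.53, adjusted p = 0.395). *Myf5* and *Lbx1* did not pass at either time, *Myf5* with differences of -0.11 (adjusted p = 0.779) and 0.34 (adjusted p = 0.217), *Lbx1* with 0.20 (adjusted p = 0.762) and 0.67 (adjusted p = 0.143). The *Lbx1* difference at 3 h was 1.16 (adjusted p = 0.00515) without replicate 3 of E10.5 at 3 h and 0.19 (adjusted p = 0.686) without replicate 2. The counts of genes without overlap were 5 higher and 2 lower at 1 h and 6 higher and 1 lower at 3 h, beside 27.5% and 13.9%, and 26.1% and 17.2%, of all genes.

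**Figure D2:**
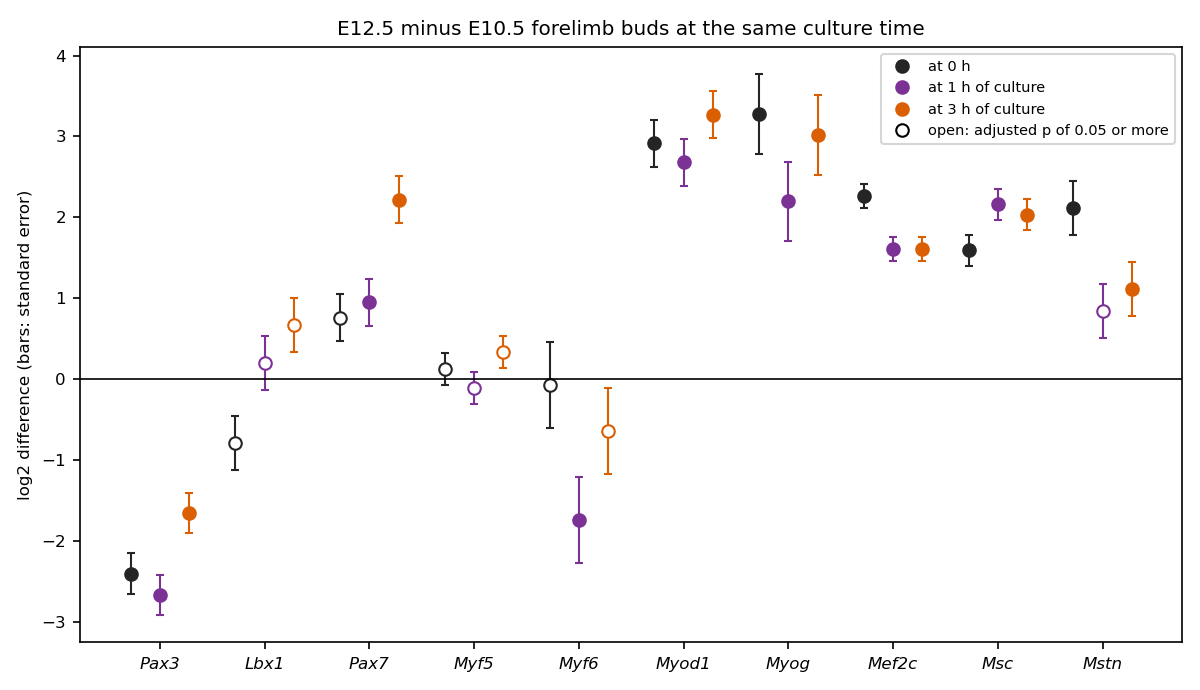
Log2 difference E12.5 minus E10.5 (vertical axis) of the 10 regulators (horizontal axis) at 0, 1 and 3 h of culture, with SE bars; open points had an adjusted p of 0.05 or more. *Pax3* lies below 0 and *Myod1*, *Myog*, *Mef2c* and *Msc* above 0 at all 3 times, while *Pax7* goes from 0.76 at 0 h to 2.22 at 3 h.

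The next question is how culture of E10.5 embryos moved these genes. After 1 h, *Myf5*, *Mef2c* and *Mstn* were higher than at 0 h and none of the 10 was lower, beside 2.79% and 1.12% of all genes. With arrays set to a common median, the calls over all genes went from 414 higher and 167 lower to 390 and 252. *Mstn* went from 6.26, 5.56 and 5.59 to 8.09, 7.28 and 7.40, a rise of 1.79 (SE 0.33, adjusted p = 0.00517), 3.45-fold. *Mef2c* went from 7.46, 7.55 and 7.06 to 8.61, 8.53 and 8.26, a rise of 1.11 (SE 0.15, adjusted p = 0.000346), and *Myf5* from 7.14, 6.90 and 7.37 to 8.01, 8.05 and 7.69, a rise of 0.78 (SE 0.20, adjusted p = 0.0354). For each of the 3 genes every array at 1 h was above every array at 0 h.

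The other 7 regulators missed the threshold at 1 h, although all 10 had an unadjusted p under 0.05, which 17.2% of all genes had. *Myf6* went from 6.49, 5.29 and 4.48 to 7.44, 7.36 and 7.09 (change 1.88, SE 0.53, adjusted p = 0.0585), *Myog* from 7.85, 5.63 and 5.96 to 8.84, 8.15 and 7.61 (change 1.72, SE 0.49, adjusted p = 0.0594) and *Myod1* from 7.02, 6.37 and 6.67 to 7.89, 7.63 and 7.36 (change 0.94, SE 0.29, adjusted p = 0.0817). *Myog* overlapped only through replicate 1 of 0 h. *Myog* and *Myf6* passed without that array, each with a change of 2.41 (adjusted p = 0.0019 and 0.0118). *Myf6*, *Myod1* and *Myog* also passed without replicate 1 of 3 h (adjusted p = 0.0365, 0.0298 and 0.0337), *Myf6* and *Myod1* without replicate 2 of 3 h (adjusted p = 0.0293 and 0.0414). *Lbx1* had the opposite sign, 6.66, 6.89 and 6.65 after 1 h against 8.08, 7.25 and 7.50 at 0 h, without overlap, and its change of -0.88 (SE 0.33, adjusted p = 0.17) passed without replicate 2 of 3 h (adjusted p = 0.0474). Counted over the 10 genes, 6 were higher and 1 lower without overlap at 1 h, beside 13.5% and 11.6% of all genes.

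The *Myf5* call ended when any of the 0 h arrays or replicate 1 or 2 of 1 h was left out (adjusted p between 0.0521 and 0.15). Without replicate 1 of 1 h, the array with the neural markers, *Mstn* and *Mef2c* kept their calls at 1.53 (adjusted p = 0.0384) and 1.04 (adjusted p = 0.00303). With the placenta and decidua mean as a covariate none of the 10 passed, with changes of 1.56 for *Mstn* (adjusted p = 0.273), 0.94 for *Mef2c* (adjusted p = 0.134) and 0.62 for *Myf5* (adjusted p = 0.494). The share of all genes called with the covariate is not given here, so this count is not read as particular to the regulators. In the same fit the changes of *Myog*, *Myod1* and *Myf6* were 0.03, 0.25 and 0.61 (adjusted p = 0.994, 0.89 and 0.839). By the methods' t-test 2 of the 10 had an unadjusted p under 0.01, for which the share of all genes was not computed. None of the 10 passed after adjustment, and neither did any of the 14860 genes. In the same comparison 3 of 5 placenta and decidua markers and 2 of 6 of distal limb mesenchyme were lower, while 5 of 7 of the coelomic mesothelium, 3 of 8 of neurons, 2 of 5 of neural crest and Schwann cells, 2 of 4 of smooth muscle and 2 of 7 of proximal limb, shoulder girdle and flank were higher. Among markers of the neural tube, of dermomyotome and somite, of endothelium and of head and pharyngeal muscle, 1 each was higher. The placenta and decidua mean itself separated 0 h (4.88, 7.98 and 7.68) from 1 h (3.05 to 3.16). The covariate therefore cannot tell its part from that of culture. The part of any of these markers in the result was not tested.

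After 3 h, *Mef2c* and *Mstn* were higher than at 0 h and none of the 10 was lower, beside 3.23% and 1.45% of all genes, and the same 2 were the genes without overlap, beside 10.9% higher and 10.2% lower. *Mef2c* measured 8.42, 8.07 and 8.24 (change 0.89, SE 0.15, adjusted p = 0.00205). *Mstn* measured 6.81, 6.82 and 7.35 (change 1.19, SE 0.33, adjusted p = 0.0487), and this call ended in 15 of the 21 fits that left out 1 array, with an adjusted p of up to 0.162. It remained without replicate 1 of E10.5 at 0 or 1 h, replicate 1 or 3 of E10.5 at 6 h, or replicate 1 or 3 of E12.5 at 0 h. With the placenta and decidua covariate neither gene passed (adjusted p = 0.185 for *Mef2c* and 0.446 for *Mstn*), and the share of all genes called in that fit is not given here. *Lbx1* was spread from 5.52 to 7.46 at 3 h, with a change of -1.12 (SE 0.33, adjusted p = 0.0654) that passed without replicate 3, its highest array at this time (-1.61, adjusted p = 0.00396), but was -0.64 (adjusted p = 0.236) without replicate 2, its lowest and the array with the lowest median. It also passed with arrays set to a common median (adjusted p = 0.0391) or quantile normalized (adjusted p = 0.0376). *Myog* measured 8.43, 6.83 and 6.81, a change of 0.88 (SE 0.49, adjusted p = 0.335), which passed without replicate 1 of 0 h (1.57, adjusted p = 0.036). It was 0.45 (adjusted p = 0.701) without replicate 2 of 0 h, 0.34 (adjusted p = 0.726) without replicate 1 of 3 h and -0.71 (adjusted p = 0.688) with the covariate, so its direction was not kept. At 3 h, 5 of 7 coelomic mesothelium, 3 of 8 endothelium, 2 of 5 neural crest and Schwann cell and 3 of 4 smooth muscle markers were higher than at 0 h. Lower were 2 of 5 of placenta and decidua and 2 of 6 of distal limb mesenchyme. Their part in the result was not tested.

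After 6 h none of the 10 differed from 0 h in limma, beside 6.76% of all genes. At an unadjusted p under 0.05 there were 2, beside 20.9%, and none by the methods' t-test after adjustment. Without overlap *Myf5* and *Mef2c* were higher, beside 10.6% of all genes. *Mef2c* was at 7.72, 7.82 and 7.85, between its 0 h and 3 h values (change from 0 h 0.44, SE 0.15, adjusted p = 0.0896), *Lbx1* at 7.46, 7.36 and 7.29, within its 0 h range, and *Pax3* at 8.13, 8.50 and 8.21. *Mstn* was at 5.63, 6.80 and 7.09 (change 0.70, SE 0.33, adjusted p = 0.237). It passed without replicate 1 (1.14, adjusted p = 0.0205) and was 0.41 (adjusted p = 0.675) without replicate 3. *Myog*, at 7.30, 7.80 and 7.11 (change 0.93, SE 0.49, adjusted p = 0.297), passed without replicate 1 of 0 h (1.61, adjusted p = 0.0295), or without that array and 3 other E10.5 arrays, and was 0.50 (adjusted p = 0.66) without replicate 2 of 0 h.

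From 3 h to 6 h of E10.5 culture, again none of the 10 passed, beside 2.27% of all genes, with 2 at an unadjusted p under 0.05, beside 16.1%, and none by the methods' t-test after adjustment. The *Mef2c* difference was -0.45 (SE 0.15, adjusted p = 0.138), and every array at 6 h was below every array at 3 h. The *Lbx1* difference was 0.88 (SE 0.33, adjusted p = 0.196), 1.37 (adjusted p = 0.0167) without replicate 3 of 3 h and 0.40 (adjusted p = 0.46) without replicate 2 of 3 h. There was 1 regulator higher and 1 lower without overlap, beside 6.94% and 7.1% of all genes. Over the same interval 2 of 5 placenta and decidua markers were higher and 5 of 6 of distal limb mesenchyme were lower. Their part in the result was not tested.

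The same question was asked of E12.5 culture. After 1 h, *Msc* was higher than at 0 h and none of the 10 was lower, beside 1.29% and 0.828% of all genes. It went from 6.87, 6.93 and 7.67 to 8.20, 8.21 and 8.15, a rise of 1.03 (SE 0.19, adjusted p = 0.00794) that was lost without replicate 1 or 2 of 0 h (adjusted p between 0.0604 and 0.0632). *Pax7* went from 6.97, 7.18 and 7.71 to 8.19, 8.28 and 8.28, without overlap, and its change of 0.96 (SE 0.29, adjusted p = 0.104) passed without replicate 1 of E10.5 at 1 h, which enters through the shared estimate of spread (adjusted p = 0.00688). Of the 10 genes, 5 were higher without overlap, beside 13.9% of all genes. These were *Pax3*, *Pax7*, *Myf5*, *Mef2c* and *Msc*. Along with these, 4 of 7 markers of proximal limb, shoulder girdle and flank were higher (median 1.06) and 1 of 6 of distal limb mesenchyme was lower, and their part in the result was not tested.

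After 3 h, *Pax7* and *Myf5* were higher than at 0 h and none of the 10 was lower, beside 9.94% and 17.6% of all genes. Quantile normalization moved the calls over all genes from 1477 higher and 2609 lower to 2265 and 2432. *Pax7* reached 8.86, 8.59 and 8.94, a rise of 1.51 (SE 0.29, adjusted p = 0.00104), 2.84-fold, and this call remained in every fit that left out 1 array. *Myf5* went from 6.78, 7.37 and 7.64 to 7.89, 7.69 and 8.24, a rise of 0.68 (SE 0.20, adjusted p = 0.0162) that was lost without replicate 1 of 0 h (0.44, adjusted p = 0.106) or replicate 3 of 3 h (adjusted p = 0.0848). Without overlap 6 of the 10 were higher, beside 22.0% of all genes.

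Just short of the threshold were *Pax3*, from 5.53, 5.54 and 5.72 to 6.34, 6.06 and 6.30 (change 0.64, SE 0.25, adjusted p = 0.0685), and *Myod1*, from 9.15, 9.65 and 10.002 to 10.23, 10.32 and 10.51 (change 0.75, SE 0.29, adjusted p = 0.0633). *Pax3* passed without replicate 1 or 3 of E10.5 at 1 h (adjusted p = 0.00852 and 0.0495) or replicate 2 of E10.5 at 3 h (adjusted p = 0.0443), and with arrays set to a common median (adjusted p = 0.0354) or quantile normalized (adjusted p = 0.0404). *Myod1* passed without replicate 1 or 2 of E10.5 at 3 h or replicate 3 of E12.5 at 0 h (adjusted p = 0.0215, 0.0327 and 0.0388), and under the same 2 scalings (adjusted p = 0.0318 and 0.0205). *Msc* was at 7.46, 7.51 and 7.91, below its 1 h values, with a change from 0 h of 0.47 (SE 0.19, adjusted p = 0.078) that passed without replicate 3 of 0 h (adjusted p = 0.00513). *Mef2c* at 9.86, 9.78 and 9.93 and *Mstn* at 8.02, 7.99 and 8.32 overlapped their 0 h values of 9.34, 9.60 and 9.93 and 7.38, 7.95 and 8.42.

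**Figure D3:**
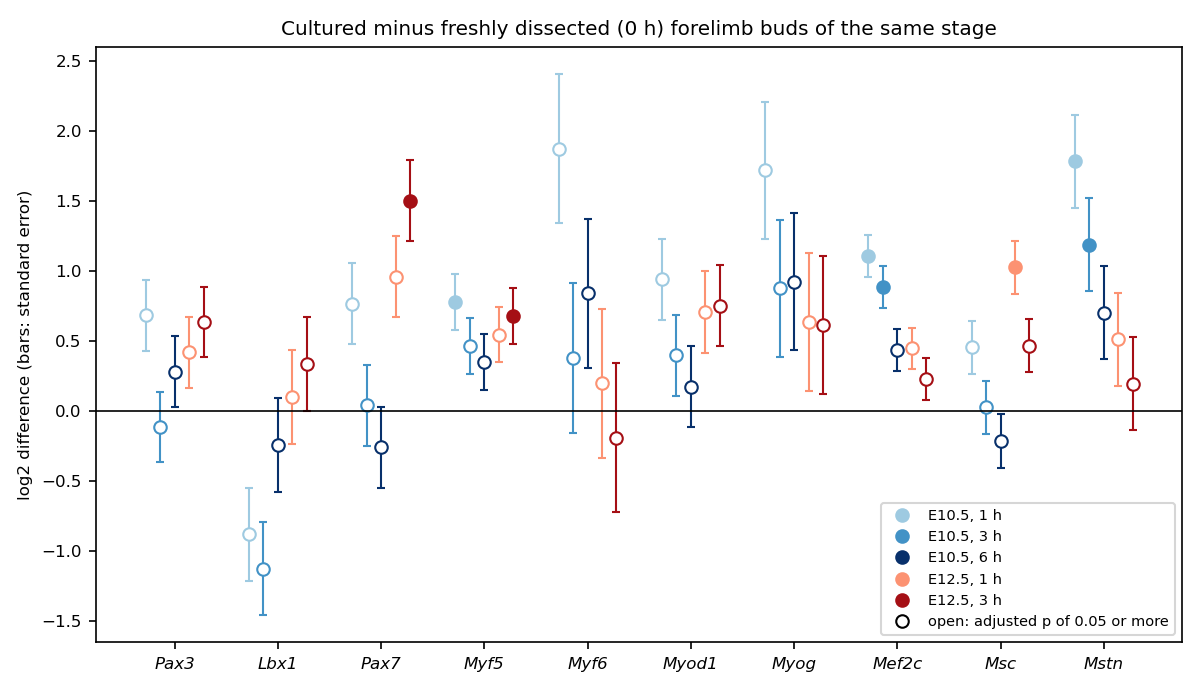
Log2 difference from 0 h of the same stage (vertical axis) of the 10 regulators (horizontal axis) after 1, 3 and 6 h at E10.5 (blue) and 1 and 3 h at E12.5 (red), with SE bars; open points had an adjusted p of 0.05 or more. Filled points are *Myf5*, *Mef2c* and *Mstn* in E10.5 culture and *Pax7*, *Myf5* and *Msc* in E12.5 culture.

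Whether the change in culture differed between the stages was tested directly, as the E12.5 change minus the E10.5 change. At 1 h none of the 10 passed, beside 0.538% of all genes, with 4 at an unadjusted p under 0.05, beside 11.4%, and none by the methods' t-test after adjustment. At 3 h, the difference was above 0 for *Lbx1* and *Pax7* and below 0 for *Mef2c*, beside 4.83% and 9.43% of all genes. Under quantile normalization the calls over all genes at 3 h moved from 718 higher and 1401 lower to 1359 and 1465. The *Pax7* value at 3 h minus 0 h was 1.51 at E12.5 and 0.04 at E10.5, a difference of 1.46 (SE 0.41, adjusted p = 0.0263). For *Lbx1* these values were 0.34 and -1.12, neither of which passed alone, a difference of 1.46 (SE 0.47, adjusted p = 0.0477). For *Mef2c* they were 0.23 and 0.89, a difference of -0.66 (SE 0.21, adjusted p = 0.0458). By the same test 3 of 8 neural tube markers and 1 of 6 of dermomyotome and somite were above 0. So were 4 of 7 of proximal limb, shoulder girdle and flank (1 below 0) and 2 of 5 of placenta and decidua. Below 0 were 3 of 7 of coelomic mesothelium and 2 of 8 of endothelium. The part of these tissues in the 3 differences was not tested.

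All 3 regulator calls lay close to the threshold. *Pax7* lost it without replicate 2 of E10.5 at 0 or 3 h, replicate 1 or 2 of E12.5 at 0 h, or replicate 1 or 3 of E12.5 at 3 h (adjusted p between 0.0518 and 0.0676). *Lbx1* kept it only without replicate 3 of E10.5 at 3 or 6 h or replicate 3 of E12.5 at 1 h, and lost it in the other 18 fits (adjusted p up to 0.102). *Mef2c* lost it in 13 of 21 such fits (adjusted p up to 0.116) and kept it without replicate 1 or 2 of E10.5 at 0 h, 1 or 3 at 1 h, 2 at 3 h, 1 or 3 at 6 h, or replicate 1 of E12.5 at 0 h. It also lost it with a common array median or quantile normalization (adjusted p = 0.0512 and 0.081), *Pax7* and *Mef2c* with the placenta and decidua covariate (adjusted p = 0.0668 and 0.239), and *Lbx1* without 4 E10.5 arrays (0.74, adjusted p = 0.167) and with array weights (0.59, adjusted p = 0.216).

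The targets of these factors were read from a list of 28 genes of muscle differentiation and fusion, 19 of them measured. At 0 h, 16 of the 19 were higher at E12.5 and none lower, with a median difference of 2.37, beside 19.7% of all genes higher, and after 1 and 3 h 17 and 18 were higher, beside 13.8% and 17.7%. The study's supplementary gene lists name 12 of the 28, so their direction is not taken as independent evidence. *Myl1*, a fast myosin light chain, was higher by 5.31 at 0 h (adjusted p = 2.49e-07), *Tnnc1*, slow and cardiac troponin C, by 4.55 (adjusted p = 3.73e-06), *Casq2*, a calcium store protein, by 4.22 (adjusted p = 7.71e-07), and *Mymk*, the myoblast fusion protein myomaker, by 3.62 (adjusted p = 3.47e-06) in limma. *Tnnt2* and *Tnnc1* are also heart genes. The 4 measured heart markers had 0 higher and 0 lower in this comparison by limma, and *Nkx2-5* differed by -0.27 (adjusted p = 0.431) and *Myl7* by -0.46 (adjusted p = 0.329).

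In E10.5 culture, 8 of the 19 were higher at 1 h and 6 at 3 h, beside 2.79% and 3.23% of all genes, and none was lower at either time. *Myl1* rose by 2.75 (adjusted p = 0.00244) and then stood at 2.05 over 0 h (adjusted p = 0.0169), and *Tnnt2*, cardiac and embryonic troponin T, was up by 1.59 at 1 h (adjusted p = 0.00317) and by 1.60 after 3 h (adjusted p = 0.00276). At 6 h only *Tnni1* was still higher (1.59, adjusted p = 0.0276) and none was lower, beside 578 higher and 426 lower of all 14860 genes. Between 3 and 6 h *Acta1* fell by 1.43 (adjusted p = 0.0353) and *Tnnt2* fell by 1.31 (adjusted p = 0.0163). None of the 19 rose then, beside 98 higher and 240 lower of all genes. From 3 to 6 h, 5 of 6 distal limb mesenchyme markers were lower and 2 of 5 of placenta and decidua were higher. Heart markers had 0 of 4 higher at 1 h and 1 of 4 at 3 h, and smooth muscle markers 2 of 4 at 1 h and 3 of 4 at 3 h. Their part in the result was not tested. In E12.5 culture none of the 19 passed at 1 h, and 6 were higher at 3 h, beside 1.29% and 9.94% of all genes, among them *Mymk* (1.12, adjusted p = 0.0466) and the acetylcholine receptor subunit *Chrnd* (0.83, adjusted p = 0.000861).

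**Figure D4:**
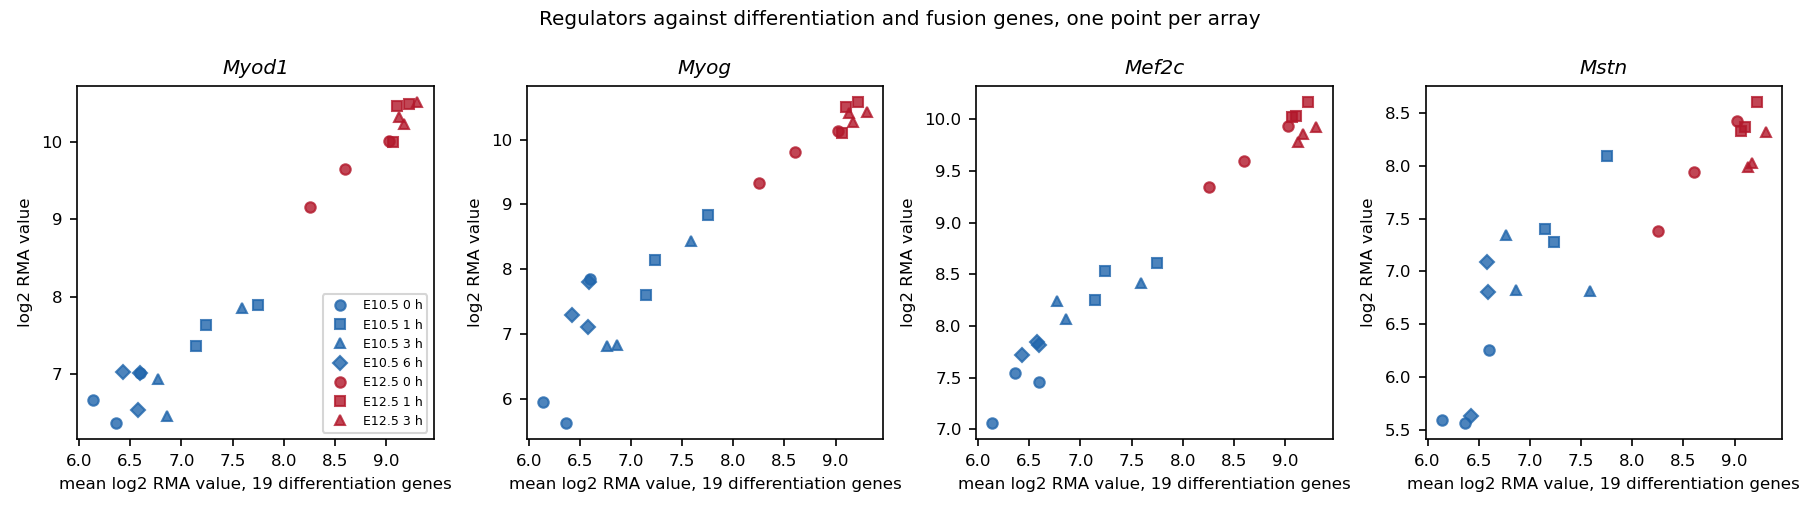
Log2 RMA value of *Myod1*, *Myog*, *Mef2c* and *Mstn* (vertical axes) against the mean of 19 differentiation and fusion genes (horizontal axis), 1 point per array, E10.5 in blue and E12.5 in red. E12.5 arrays lie between 8.25 and 9.31 on the horizontal axis and E10.5 arrays between 6.14 and 7.75, and the points share stage and array, so the figure is a description.

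Of 13 measured genes of precursor migration and progenitors, 6 were higher and 3 lower at E12.5 at 0 h, beside 19.7% and 7.39% of all genes. *Hgf*, the ligand that releases *Pax3* cells from the somite, was lower by 1.47 on the log2 scale (-1.47, adjusted p = 2.94e-05), and *Six4*, a homeobox gene of muscle precursors, was lower (-0.61, adjusted p = 0.000432). *Meox2*, a homeobox gene of limb muscle precursors, was higher (1.22, adjusted p = 0.000346), as was *Cxcl12*, the chemokine that guides them and a gene named in the study's supplementary lists (0.76, adjusted p = 0.000718). In E10.5 culture *Cxcl12* was higher than at 0 h at all 3 times, by 0.82, 1.00 and 0.72 (adjusted p = 0.00323, 0.000492 and 0.00431), whereas by 6 h *Meox2* fell by 1.95 (adjusted p = 1.23e-05), *Spry1*, an inhibitor of receptor tyrosine kinase signalling, fell by 1.11 (adjusted p = 0.00112) and *Cxcr4*, the receptor of *Cxcl12*, fell by 0.82 (adjusted p = 0.0228). At 6 h 1 of the 13 was higher and 3 lower, beside 6.76% of all genes called in either direction. All 6 measured markers of distal limb mesenchyme were lower at 6 h. Higher were 4 of 7 of proximal limb, shoulder girdle and flank (1 lower) and 5 of 7 of coelomic mesothelium (0 lower). The part of these tissues in the result was not tested. At E12.5 3 of the 13 were higher and 4 lower after 3 h, beside 9.94% and 17.6% of all genes, with *Met*, the *Hgf* receptor, at -0.54 (adjusted p = 0.00855). All of these p-values are from limma.

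Among 15 measured partners and inhibitors of the myogenic factors, 6 were higher and 2 lower at E12.5 at 0 h, beside 19.7% and 7.39% of all genes. *Mef2d*, a relative of *Mef2c*, was higher by 1.61 (adjusted p = 0.000706), and *Id1* and *Id3*, which sequester the E-proteins that the myogenic factors pair with, by 1.12 (adjusted p = 0.000274) and 0.59 (adjusted p = 0.00322). *Tcf3*, such an E-protein gene, was lower (-0.39, adjusted p = 0.0369), and so was *Tcf21*, a relative of *Msc* (-0.79, adjusted p = 0.0275). *Tcf21* is also on the marker lists of coelomic mesothelium and of head and pharyngeal muscle used here. In E10.5 culture *Id3* and *Tcf21* were the 2 that rose at 1 h, by 0.59 (adjusted p = 0.0196) and 0.94 (adjusted p = 0.0456), and none fell, beside 2.79% higher and 1.12% lower of all genes. Counting *Tcf21*, 5 of 7 coelomic mesothelium markers were higher there and 0 lower, and their part in the *Tcf21* value was not tested. After 3 h at E12.5, 4 were higher and none lower, beside 9.94% and 17.6%, among them *Mef2b* (0.74, adjusted p = 0.00334) and *Hey1*, a Notch target (0.56, adjusted p = 0.00772), in the same limma fit.

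Around *Mstn*, 12 measured genes of its pathway included 7 higher and 1 lower at E12.5 at 0 h, beside 19.7% and 7.39% of all genes. The extracellular antagonists *Fst* (follistatin) and *Wfikkn2* were higher by 1.97 (adjusted p = 0.00106) and 1.504 (adjusted p = 5.68e-05), as was *Tll1*, a protease of the family that frees the latent ligand, by 1.23 (adjusted p = 0.001). Its type II receptors parted, with *Acvr2a* at 1.102 (adjusted p = 1.85e-05) and *Acvr2b* at -1.20 (adjusted p = 0.00129). In E10.5 culture *Acvr2a* was the only 1 to pass at 1 h, beside 2.79% of all genes (0.61, adjusted p = 0.0218), and *Wfikkn2* fell by 1.07 at 6 h (adjusted p = 0.00502). After 3 h at E12.5, beside 9.94% higher and 17.6% lower of all genes, 1 was higher, the inhibitory *Smad7* (0.49, adjusted p = 0.00716), and 3 were lower, namely *Smad2* (-0.57, adjusted p = 8.73e-05), the type I receptor *Tgfbr1* (-0.56, adjusted p = 0.000519) and *Acvr2a* (-0.46, adjusted p = 0.0233), all in limma. *Acvr2a* and *Fst* are also named in the study's supplementary gene lists.

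*Pax3* and *Pax7* are made by the dorsal neural tube as well as by muscle precursors, so the markers of that tissue are given beside them. On replicate 1 of E10.5 at 1 h, *Pax3* was 9.48 and *Pax7* 8.27, against 8.36 and 8.20, and 6.90 and 6.73, on the other arrays of the group. On the same array *Sox2*, a neural progenitor marker, was 10.32 against 5.43 and 5.54, and the neuronal genes *Stmn2* and *Elavl4* were 11.61 against 6.73 and 6.68, and 9.36 against 5.75 and 5.94. Without that array the change at 1 h was 0.29 (adjusted p = 0.585) for *Pax3* and 0.28 (adjusted p = 0.621) for *Pax7*, instead of 0.69 and 0.77, and neither value passed in limma.

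Along with the rise of *Pax7* in E12.5 culture, 3 of 8 neural tube markers were higher at 3 h than at 0 h, *Dbx1* by 1.75 (adjusted p = 0.00241), *Nes* by 0.78 (adjusted p = 0.0425) and *Msi1* by 0.78 (adjusted p = 0.000809), with array means of the 8 markers from 6.36 to 6.56 at 0 h and from 6.90 to 7.01 at 3 h. *Sox2* was at 5.08, 5.20 and 5.96 at 0 h and at 5.44, 5.21 and 5.30 at 3 h, so its groups overlapped. In addition, 3 of 6 measured markers of dermomyotome and somite were higher at 3 h, *Pax1* by 2.03 (adjusted p = 0.000294), *Sim1* by 1.52 (adjusted p = 0.0165) and *Meox1* by 1.02 (adjusted p = 0.034), with array means from 6.86 to 7.18 and from 7.69 to 7.89, as were 5 of 7 markers of proximal limb, shoulder girdle and flank. The part of any of these tissues in the *Pax7* values was not tested, and the p-values are from limma.

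**Figure D5:**
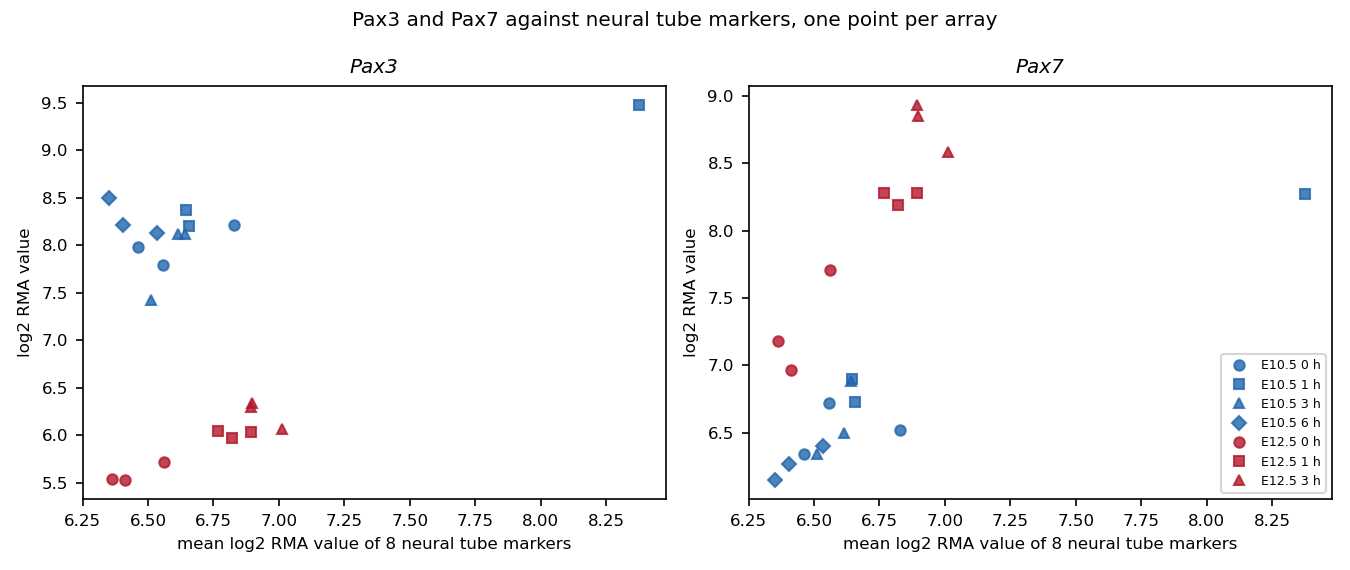
Log2 RMA value of *Pax3* and *Pax7* (vertical axes) against the mean of 8 neural tube markers (horizontal axis), 1 point per array, E10.5 in blue and E12.5 in red. Replicate 1 of E10.5 at 1 h lies alone at 8.38 on the horizontal axis and holds the highest *Pax3* value, 9.48, while the E12.5 arrays at 3 h hold the highest *Pax7* values.

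Placed in order of their means, the 7 groups formed a series for each gene. These series were not set apart by role throughout, since *Mef2c* and *Mstn* shared an order. For *Pax3* the order ran from E10.5 at 1 h (8.68 ± 0.69, SD, n = 3) over 6, 0 and 3 h, whose neighbours overlapped, to E12.5 at 3, 1 and 0 h (5.59 ± 0.11), whose neighbours did not. *Pax7* was highest in E12.5 at 3 h (8.79 ± 0.18) and lowest in E10.5 at 6 h (6.27 ± 0.13). For *Myod1* and *Myog* the 3 E12.5 groups lay above all E10.5 groups, with E10.5 at 1 h next (7.63 ± 0.26 and 8.20 ± 0.62) and E10.5 at 0 h last (6.69 ± 0.33 and 6.48 ± 1.20), and the E10.5 neighbours overlapped throughout. *Mef2c* had the clearest ladder, with no overlap between E12.5 at 1 and 3 h, E12.5 at 0 h and E10.5 at 1 h, E10.5 at 3 and 6 h, or E10.5 at 6 and 0 h. *Mstn* followed the same order of groups as *Mef2c*, and only its 2 highest groups, E12.5 at 1 h (8.43 ± 0.15) and at 3 h (8.11 ± 0.18), were free of overlap. *Msc* ended with E10.5 at 6 h (5.36 ± 0.16). *Myf5* overlapped between all neighbours, from E12.5 at 3 h (7.94 ± 0.27) to E10.5 at 0 h (7.13 ± 0.24). *Lbx1* ran from E10.5 at 0 h (7.61 ± 0.43) to E10.5 at 3 h (6.49 ± 0.97), and *Myf6* from E10.5 at 1 h (7.29 ± 0.19) to E12.5 at 3 h (5.16 ± 0.45). A lower place within such a series is an order of probe signals of 1 gene and says nothing of levels between genes.

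The genes whose pattern was most like that of each regulator are named by Pearson's r over the 21 arrays, as a description, since these arrays share stage and culture time. *Arpp21* was nearest to *Myod1* (r = 0.99, and 0.919 over the 12 E10.5 arrays alone), followed by the fetal acetylcholine receptor subunit *Chrng* (r = 0.987). *Unc45b*, a myosin chaperone, was nearest to *Myog* (r = 0.978), *Rxrg* and *Tnnt2* to *Mef2c* (r = 0.988 and 0.987), and *Slitrk1* to *Mstn* (r = 0.949), and *Tnnc1*, at r = 0.937, among its 5 nearest. *Lfng*, a modifier of Notch receptors, was nearest to *Pax7* (r = 0.947, and 0.989 over the 9 E12.5 arrays) and *Casq1* next (r = 0.942). *Plch1* had r = 0.951 with *Pax3* over all arrays, 0.79 over the E10.5 arrays and 0.051 over the E12.5 arrays, and *Fgf7* had r = 0.973 with *Msc* over all, 0.568 over the E10.5 and 0.885 over the E12.5 arrays. *Myf5*, *Lbx1* and *Myf6* had no gene above r = 0.832, their nearest being *Tshz3* (r = 0.807), *Patl2* (r = 0.832) and *Phox2a* (r = 0.808), the last a gene of sympathetic neurons.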

How the data were processed

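Each sample's FB RNA was read on 1 Affymetrix Mouse Exon array, and the table the authors deposited holds log2 values made with RMA in Affymetrix Expression Console, according to the submitters' processing notes (background correction, quantile normalization and summarization of probes). Probe intensities and detection calls are not used here, and the number of arrays limits the precision. Of 23332 rows, 14996 with 1 annotated gene were kept (1019 have several, 7317 none), 14941 were matched to GRCm38.p6 by gene identifier, and the row with the highest mean was taken per gene, which left 14860 genes. A mean per group was fitted with limma (version 3.58.1, R 4.3.3) to all 21 arrays, with 14 residual and 3.09 prior degrees of freedom. Calls use a Benjamini-Hochberg adjusted p under 0.05 over all genes; an exact permutation of 3 against 3 arrays cannot go below 0.1. The fit was tested on simulated data of 14860 genes with 200 changed (E12.5 minus E10.5 at 0 h), where it recovered 75% of changes of 1 and 98% of changes of 2 and called 6 other genes. The alternatives were a common array median, quantile normalization, no genes of the lowest 30%, all rows of a gene, all features, trend and robust moderation, array weights, the replicate block, the groups of a comparison alone, the methods' t-test (the paper gives p under 0.01 and no test for the arrays), an adjusted p under 0.01, and leaving out each array. After seeing the data, a covariate (the array means of placenta and decidua markers) and a fit without replicate 1 of E10.5 at 0 and 1 h, 2 at 3 h and 3 at 6 h were added. The covariate differs between the groups, so a call lost with it cannot be assigned to that tissue. All 10 members are named, with the genes nearest to them by correlation and members of the lists. The members and lists were chosen with earlier results of these data known.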

Additional observations from a re-analysis of the deposited data

Results flagged for a closer look

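The change after 3 h of culture differed between the stages, by the test of the difference itself in limma, for *Lbx1* (1.46, adjusted p = 0.0477). It differed likewise for *Pax7* (1.46, adjusted p = 0.0263). It differed in the other direction for *Mef2c* (-0.66, adjusted p = 0.0458). Of all genes, 4.83% had a difference above 0 and 9.43% below 0 by the same test. These calls were not stable. Of the 21 fits that left out 1 array, 18 ended the *Lbx1* call, 13 the *Mef2c* call and 6 the *Pax7* call. The *Lbx1* and *Mef2c* calls also ended with all features and by the methods' t-test.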

How the results depend on the processing

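Over 34 alternatives and 110 pairs of regulator and comparison, 3523 of 3740 values stayed on their side of the threshold, 127 lost a call, 90 gained one, and no called value changed sign. Of the 31 calls, 16 were kept in every alternative. Uncalled values changed sign in 54 cases, the largest of them 1.08 in size as reported.

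For E10.5 at 1 h, where 3 regulators passed, quantile normalization, leaving out the lowest 30% of genes and trend and robust moderation each gave 5, array weights 7, the groups of the comparison alone 1, and the methods' t-test and the placenta and decidua covariate 0. The calls over all genes moved too, from 414 higher and 167 lower to 534 and 321 with quantile normalization and 928 and 956 with array weights. They were 109 and 15 with the groups alone and 0 and 0 with the methods' t-test. At 3 h, where 2 passed, array weights gave 4, all features, the replicate block and an adjusted p under 0.01 gave 1, and the groups alone, the methods' t-test and the covariate 0. Over all genes, 480 higher and 216 lower became 1643 and 1027 with array weights. They became 79 and 3 with the groups alone and 0 and 0 with the methods' t-test. At 6 h, where none passed, array weights gave 4 and the fit without 4 arrays 1. Array weights also took the calls over all genes there from 578 higher and 426 lower to 1142 and 923. For E12.5 at 1 h, where 1 passed, quantile normalization gave 2, array weights, the groups alone and the fit without 4 arrays 3, and the methods' t-test 0. Over all genes, 191 higher and 123 lower became 710 and 769 with array weights. They became 418 and 203 with the groups alone and 1 and 0 with the methods' t-test. At 3 h, where 2 passed, a common median, quantile normalization, leaving out the lowest 30%, the groups alone and the fit without 4 arrays gave 4, array weights 5 and an adjusted p under 0.01 gave 1. Over all genes, 1477 higher and 2609 lower became 2563 and 3388 with array weights and 2172 and 2906 with the groups alone. For the difference between the stages' changes, array weights gave 3 at 1 h, where none passed, and at 3 h, where 3 passed, all features, the replicate block, the groups alone, the methods' t-test and the covariate gave 1 and an adjusted p under 0.01 gave 0. Over all genes, array weights took the calls at 1 h from 22 higher and 58 lower to 590 and 484. At 3 h the groups alone gave 617 and 1220 over all genes, against 718 and 1401 in the main fit. The cause was not tested. Calls over all genes with the covariate are not given here, so its counts of regulators have no share beside them.

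Leaving out 1 array gave 2 to 6 calls for E10.5 at 1 h, 1 to 3 at 3 h, 0 to 1 at 6 h, 0 to 1 from 3 to 6 h, 0 to 2 and 1 to 4 for E12.5 at 1 and 3 h, 6 to 7, 5 to 8 and 6 to 8 for the stages at 0, 1 and 3 h, and 0 and 0 to 3 for the differences between changes at 1 and 3 h. The replicate numbers were not used as pairs in the main fit, and the labels do not say whether equal numbers belong together. Of 63 pairs of arrays with the same number, 12 had deviations that correlated above 0.1, with a median of 0.0059 and a highest r of 0.328. The replicate block moved no other count by over 1.5 times. The level of *Myf6* was low and detection calls are not used here, and 3 arrays per group limit all values.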

Other observations

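Pairs of regulators are given as correlations of log2 values over arrays, as a description, since arrays share stage, culture and tissue. *Pax3* and *Pax7* had r = -0.559 over all 21 arrays, but 0.751 over the 12 of E10.5 and 0.984 over the 9 of E12.5. Replicate 1 of E10.5 at 1 h, the array with the neural markers, held the highest E10.5 value of both genes (9.48 and 8.27). How far the E10.5 correlation depends on that array was not tested, since r without it was not computed. *Myod1* and *Myog* had r = 0.964 over all arrays, 0.875 at E10.5 and 0.992 at E12.5.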
